A study of Mus musculus with 1545 samples.

Results

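Somatostatin is an inhibitory neuropeptide. Followed here were its precursor gene Sst and 4 of its receptor genes, Sstr1, Sstr2, Sstr3 and Sstr4. These 5 genes were chosen by name out of 24378 genes and were followed across every neuron type and mouse line of the study. The study sequenced 1545 single cells from the grey matter of the mouse spinal dorsal horn, the region where touch, pain, itch and temperature signals from the skin are first processed. Of these cells, 637 came from C57bl6 animals (the wild type, labelled 18 to 28 days old), 537 from a vGat-Cre-tdTomato line (17 to 24 days) and 371 from a vGlut2-eGFP line (23 to 26 days). In the vGat-Cre-tdTomato line, Cre is placed under the gene of the vesicular GABA transporter, so that tdTomato marks cells that use or once used it; in the vGlut2-eGFP line, eGFP reports the gene of the vesicular glutamate transporter vGlut2. The submitters' labels assign each cell to 1 of 30 neuron types and to a class, which gave 767 excitatory cells in 15 types, 760 inhibitory cells in 14 types and 18 cells whose type name and class label conflict. Slc17a6, the excitatory marker that encodes vGlut2, was at 799 CPM in the excitatory cells, and Gad1, which makes GABA, was at 18.4 CPM there and had a UMI in 708 of 734 inhibitory cells with few Sst molecules. The labels name no animal, so cells that share line, labelled sex and labelled age were added up as 1 animal set, which gave 10, 3 and 4 sets for the C57bl6, vGat and vGlut2 lines; a set may hold several animals, and p-values measure only the spread between sets.

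The Sst product is cut by prohormone convertases to somatostatin-28 and somatostatin-14, which are stored in vesicles and released from neurons. The receptors are coupled to inhibitory G proteins: when somatostatin binds, they lower cyclic AMP, open GIRK potassium channels and close presynaptic calcium channels, which makes the receiving neuron less active. In the dorsal horn, somatostatin is classically used as a marker of excitatory interneurons, and Sstr2 is known from inhibitory interneurons that it silences.

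The genes lie on separate chromosomes of the mouse genome (GRCm38, GENCODE annotation). Sst spans chr16:23889573-23890958 on the minus strand and has 2 exons. Sstr1 lies at chr12:58211772-58214444 on the plus strand, Sstr2 at chr11:113619342-113626028 on the plus strand, Sstr3 at chr15:78537008-78544685 on the minus strand and Sstr4 at chr2:148395344-148396767 on the plus strand. Sstr2 is the only member that another annotated gene overlaps, Slc39a11 on the opposite strand. The sources used here do not state whether counting used strand. Slc39a11 itself was at 9.42 CPM in inhibitory cells and at 6.85 CPM in excitatory ones (CPM, molecules of a gene per 1000000 counted), against 71.6 and 6.07 CPM for Sstr2.

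The stretch of Sst that becomes the peptide is its last 28 codons before the stop, all in exon 2 (chr16:23889732-23889815, minus strand, GRCm38, from the GENCODE transcript). Capitals mark the 14 codons of somatostatin-14, and the whole run encodes somatostatin-28:
Sst, end of the coding sequence: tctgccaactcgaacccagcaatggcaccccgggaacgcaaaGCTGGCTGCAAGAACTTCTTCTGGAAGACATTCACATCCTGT

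The promoter windows of Sst and Sstr2 are shown because they are the ligand and the receptor whose levels separated the cell classes by the largest factors, in opposite directions, and because both hold the cyclic AMP response element, a sequence classically studied in the somatostatin promoter and bound by CREB. The element is the palindrome TGACGTCA, so that both strands read the same, and it is in capitals. Sequences are from RefSeq (GRCm38.p6), 250 bases before to 50 after the RefSeq start, 5′ to 3′ on the strand of the gene.
Sst (chr16:23890795-23891094, minus strand): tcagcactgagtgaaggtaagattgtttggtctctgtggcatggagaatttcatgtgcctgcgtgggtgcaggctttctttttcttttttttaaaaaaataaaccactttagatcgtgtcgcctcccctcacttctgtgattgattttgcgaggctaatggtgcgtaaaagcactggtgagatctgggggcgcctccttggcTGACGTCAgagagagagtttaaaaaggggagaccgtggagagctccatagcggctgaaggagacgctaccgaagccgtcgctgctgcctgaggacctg
Sstr2 (chr11:113619077-113619376, plus strand): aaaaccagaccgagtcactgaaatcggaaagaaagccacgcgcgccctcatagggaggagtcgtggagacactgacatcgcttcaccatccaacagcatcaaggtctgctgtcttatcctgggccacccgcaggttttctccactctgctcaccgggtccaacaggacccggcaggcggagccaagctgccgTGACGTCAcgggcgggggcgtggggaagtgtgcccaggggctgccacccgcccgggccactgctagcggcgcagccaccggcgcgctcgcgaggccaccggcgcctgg
A promoter window was found for 4 of the 5 members, and TGACGTCA stands in 1.79% of all 32851 windows of 300 bases. In Sst it starts at position -48 and in Sstr2 at position -58, counted from the RefSeq start of each gene. The RefSeq start of Sst lies inside the GENCODE span given above, and so does its motif. The windows of Sstr3 and Sstr4 do not hold these letters. A match describes the sequence only.

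All cells were deposited as counts of unique molecular identifiers (UMIs), in which each captured RNA molecule is counted once. Totals ran from 3012 to 32886 UMIs per cell, with medians of 8687, 10413 and 7030 in the C57bl6, vGat and vGlut2 lines, and from 58614 to 2610563 UMIs per set. Levels below are UMIs of a gene per 1000000 UMIs (CPM) in summed cells. Each of the 82 capture runs held 1 line and 1 set, so capture run and line cannot be told apart. Of 16 sets labelled male, 6 had the female-specific RNA Xist in at least 90% of their cells. Another 6 had it in at most 10%, and 4 lay in between. The sexes were therefore not compared. The sex label was used to form sets and to keep the main age tests to C57bl6 sets labelled male. These sets had Xist in 0 to 100% of their cells. The restriction therefore does not hold sex fixed, and age and sex were not separated. RNA of oligodendrocytes, the myelin-forming cells, differed between lines: 10 marker genes summed to 18803 to 51046 CPM in the C57bl6 sets, 1481 to 4421 CPM in the vGat sets and 78.2 to 39988 CPM in the vGlut2 sets. Markers of ganglion sensory neurons, whose central fibres also carry somatostatin, summed to at most 26.0 CPM in any set.

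Sst was the abundant member, with 36474 UMIs in 826 cells (53.5% of all cells). Of these, 35222 came from excitatory cells, 1197 from inhibitory cells and 55 from the cells with conflicting labels. The receptor genes were sparse. Sstr1 had 819 UMIs in 26.3% of cells, and 86.2% of its UMIs lay in inhibitory cells. Sstr2 had 640 UMIs in 21.9% of cells, and 92.7% of them lay in inhibitory cells. Sstr3 had 53 UMIs in 42 cells, 23 in excitatory and 29 in inhibitory cells. Sstr4 had 3 UMIs in all, in 3 cells, which is too few to set a level at this depth. Sstr5, a receptor gene outside the 5 members, was also counted and had 4 UMIs in 3 cells. Where a count was 0, the level that it allows was taken as 3 counts.

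Within the wild type, Sst and the receptor genes Sstr1 and Sstr2 lay in opposite classes. The 7 C57bl6 sets that held 10 or more cells in both classes gave Sst 3277 ± 701 CPM in excitatory cells (SD, range 2447 to 4136) and 187.4 ± 130.8 CPM in inhibitory cells (range 17.1 to 373.2). Excitatory cells were higher in 7 of 7 sets, and the means differed 17.5-fold. For Sstr1 the inhibitory level was 74.6 ± 38.3 CPM and the excitatory level 17.5 ± 10.4 CPM, a 4.25-fold ratio of means with inhibitory cells higher in every one of the 7 sets. For Sstr2 they were 57.5 ± 28.3 CPM and 5.30 ± 5.61 CPM, 10.8-fold, again with inhibitory cells higher in all 7 sets. Sstr3 was too sparse to show whether the classes differ: its inhibitory level was 3.65 ± 4.03 CPM and its excitatory level 3.82 ± 4.01 CPM. In these sets 3 counts, the level that a count of 0 allows, made 3.54 to 22.0 CPM. The ranges of the classes did not overlap for Sst, Sstr1 or Sstr2. Because the classes were cut from all genes of the same cells, these levels are a description and carry no test.

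Counted by cell, Sst was present in most excitatory cells at a high level, and in few inhibitory cells. At least 10 Sst UMIs were found in 590 of 767 excitatory cells (76.9%), and 13.95% had 0. Of 760 inhibitory cells, 78.7% had 0 Sst UMIs, 66 cells had 1 and 70 cells had 2 to 9. Only 26 inhibitory cells had 10 or more, and these 26 held 74.6% of all inhibitory Sst UMIs. They comprised 12 C57bl6 and 14 vGat-line cells. By type, 9 of them were GABA_Cplx1_Sst cells, a type whose name already carries the gene, 4 were GABA_Gal_Rspo3, and 3 each were GABA_Calb2_Tac1, GABA_Cplx1_Calb2 and GABA_Gal_Pnoc. In the 26 cells Gad1, the GABA-synthesizing enzyme, was at 696 CPM against 805 CPM in the other 734 inhibitory cells. Slc17a6, which encodes vGlut2 and marks excitatory neurons, was at 74.5 CPM with a UMI in 10 of the 26 cells, against 5.67 CPM and 22 of 734 cells. In the whole vGat line Slc17a6 had 4 UMIs, in 0.372% of cells, so most of these 10 cells were C57bl6 cells. The part of cells captured together in these counts was not tested. Median depth was 11772 UMIs in the 26 cells and 10409 UMIs in the others.

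**Figure D1:**
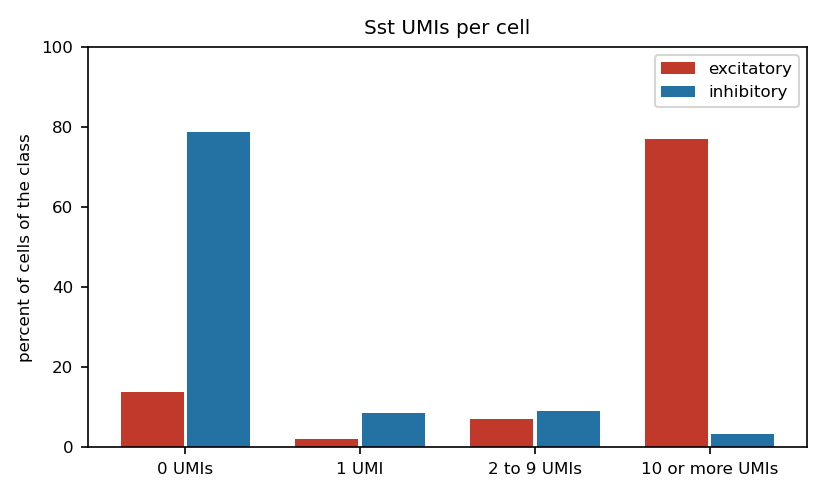
Share of excitatory (red, 767) and inhibitory (blue, 760) cells, in percent on a linear axis from 0, by the number of Sst UMIs in the cell. The band of 10 or more UMIs holds 76.9% of excitatory cells and 3.42% of inhibitory cells.

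After thinning each cell to 3000 UMIs, so that depth does not set the share, Sst was detected in 71.3% of C57bl6 excitatory cells (exact binomial 95% interval 66.6 to 75.7%) and in 96.99% of vGlut2-line excitatory cells (94.7 to 98.5%). The inhibitory cells gave 15.98% in C57bl6 (11.4 to 21.5%) and 11.01% in the vGat line (8.49 to 13.97%). Unthinned, these shares were 74.6%, 98.6%, 26.9% and 19.0%. The vGat-line runs held 1 excitatory cell among 537. The intervals cover counting error only.

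Over all lines together, each of the 15 excitatory types had a higher Sst level than every inhibitory type. In C57bl6 cells alone the lowest excitatory type, Glut_Qrfpr, was at 503.8 CPM and lay below GABA_Tac2 (589.4 CPM, 5 cells) and GABA_Cplx1_Sst (583.03 CPM). Of the 38 Sst UMIs of GABA_Tac2, 35 came from 1 cell. For Glut_Qrfpr, 3 vGlut2-line cells at 2995 CPM raised the pooled level. The highest was Glut_Tac2_3 at 16131 CPM (exact Poisson 95% interval 15537 to 16742, counting error only), with a UMI in 24 of 24 cells. Glut_Tac2_2 followed at 9661 CPM, Glut_Cck_Trh at 8651 CPM and Glut_Tac2_1 at 7619 CPM. The 3 excitatory types named for Tac2, the neurokinin B gene, together made up 13.1% of cells and held 38.1% of all Sst UMIs; in C57bl6 cells alone they made up 7.54% of cells and held 15.4% of Sst UMIs. Glut_Nts, Glut_Reln_Nmur2 and Glut_Reln_Npff lay between 5701 and 6942 CPM, and Glut_Tac1_1 and Glut_Tac1_2, named for the substance P gene, at 4821 and 4783 CPM.

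The lower end of the excitatory order was uneven from cell to cell. Glut_Cck_Maf had 3098 CPM but a median of 4 UMIs per cell, and after thinning 53.1% of its cells held Sst. Glut_Elavl4 (1431 CPM), Glut_Elavl4_Meis2 (1104 CPM) and Glut_Qrfpr (715 CPM) were detected in 47.4%, 38.2% and 20.0% of thinned cells. In Glut_Elavl4_Meis2 a single cell held 58.3% of the type's Sst UMIs. Among inhibitory types GABA_Cplx1_Sst led with 604.9 CPM and 44.1% of thinned cells, and the other 13 ran from 24.9 CPM in GABA_Calb2_Krt17 to 298.05 CPM in GABA_Calb2_Tac1. In GABA_Calb2_Tac1 65.5% of the UMIs came from 1 cell.

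Neighbours in this order were mostly not separated by the spread of sets holding 3 or more of their cells: ranges overlapped in 25 of 29 neighbouring pairs for Sst, in 28 of 29 for Sstr1 and in 26 of 29 for Sstr2, with 2, 1 and 2 pairs having no range. For Sst, the range of Glut_Tac2_3 (16979.9 to 20192 CPM over 3 sets) stood clear of that of Glut_Tac2_2 (4083 to 11723.5 CPM over 6 sets). With C57bl6 cells alone Glut_Tac2_3 was also the highest, at 12255 CPM, but it rested on 8 cells there. In the same cells Glut_Tac2_1 fell to 3251 CPM and Glut_Tac2_2 to 4942 CPM. The lead of those types rests largely on the vGlut2 line, which supplied 83 and 56 of their cells against 21 and 19 from C57bl6. Most of those vGlut2-line cells came from the set of 25 days.

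**Figure D2:**
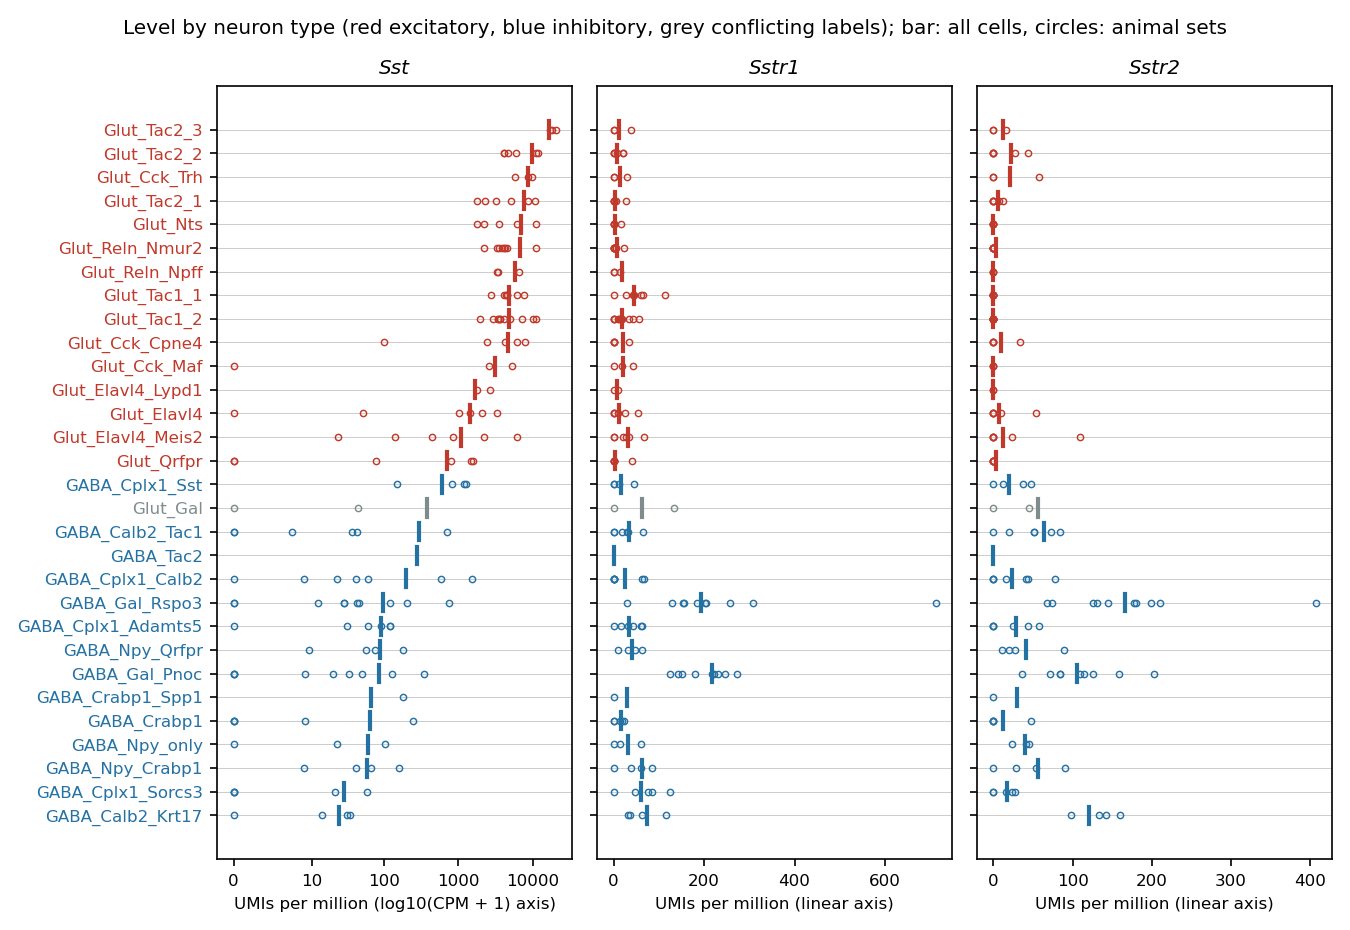
Levels of Sst, Sstr1 and Sstr2 in CPM for each neuron type, ordered by Sst, with red for excitatory, blue for inhibitory and grey for conflicting labels; bars are all cells of a type and circles are sets with at least 3 of its cells. The Sst axis is log10(CPM + 1) and the others are linear; Sst is high from Glut_Tac2_3 at 16131 CPM to Glut_Qrfpr at 715 CPM, and both receptors peak in the GABA_Gal types.

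Sstr1, a receptor of the inhibitory Gi family, was highest in the 2 inhibitory types named for galanin. GABA_Gal_Pnoc had 217.2 CPM (interval 188.9 to 248.6; 9 sets, 198.96 ± 50.8, range 125.7 to 272.1) and GABA_Gal_Rspo3 had 192.5 CPM (interval 169.8 to 217.4; 10 sets, 233.3 ± 184.2, range 28.9 to 713). After thinning, 48.3% and 43.4% of their cells held a molecule. The next inhibitory types were GABA_Calb2_Krt17 at 74.8 CPM, GABA_Npy_Crabp1 at 63.9 CPM and GABA_Cplx1_Sorcs3 at 61.8 CPM, with the conflicting-label type Glut_Gal at 63.3 CPM among them. GABA_Calb2_Krt17 differed by line, at 16.6 CPM in C57bl6 (2 UMIs in 12 cells) and 86.4 CPM in the vGat line. The highest excitatory type was Glut_Tac1_1 at 46.3 CPM (interval 30.8 to 66.9), with 16.4% of thinned cells; the excitatory types had a median of 11.7 CPM and the inhibitory types one of 33.5 CPM.

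Sstr2, the receptor that somatostatin analogues used as drugs bind, had a wider inhibitory spread. GABA_Gal_Rspo3 was at 166.6 CPM (interval 145.5 to 189.8; 10 sets, 171.8 ± 95.8), GABA_Calb2_Krt17 at 120.5 CPM (4 sets, 133.4 ± 25.8), GABA_Gal_Pnoc at 104.995 CPM (9 sets, 109.5 ± 49.4) and GABA_Calb2_Tac1 at 64.4 CPM (6 sets, 46.6 ± 31.7). In C57bl6 alone GABA_Calb2_Krt17 was at 58.2 CPM (7 UMIs in 12 cells), below GABA_Gal_Pnoc at 91.8 CPM, while in the vGat line it was at 132.9 CPM against 115.2 CPM. These 4 types made up 24.9% of cells and held 74.4% of Sstr2 UMIs. Over all lines together, 10 inhibitory types lay above every excitatory type for Sstr2, and 5 did for Sstr1. In C57bl6 cells alone, GABA_Cplx1_Adamts5 (22 cells) and GABA_Crabp1_Spp1 (6 cells), both among the 10, had 0 Sstr2 UMIs. The 4 Sstr2 UMIs of GABA_Crabp1_Spp1 all came from 1 cell. Sstr1 in GABA_Calb2_Krt17, among the 5, was at 16.6 CPM in C57bl6. The 2 GABA_Gal types alone, with 15.02% of cells, held 57.5% of Sstr1 and 51.1% of Sstr2 UMIs. Galanin (Gal) itself was highest in GABA_Gal_Rspo3, at 3242 CPM.

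GABA_Tac2, with 11 cells, had 0 UMIs of Sstr1 and 0 of Sstr2, which allows a level of up to 22.07 CPM of each, against inhibitory medians of 33.5 and 34.9 CPM. In the excitatory Glut_Tac1_1 and Glut_Tac1_2 cells the receptors differed: Sstr1 had 28 and 19 UMIs, while Sstr2 had 0 in 190 cells and 1674751 total UMIs, which allows a level of up to 1.79 CPM. The highest excitatory level of Sstr2 was 21.6 CPM, in Glut_Tac2_2. Sstr3 molecules were scattered over types with at most 6 UMIs in any type; the 6 in Glut_Nts all came from 1 cell, while GABA_Cplx1_Sorcs3 and GABA_Gal_Pnoc had 6 each, in 4 and 5 cells.

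The makeup of the receptor molecules also varied by type. Expressed as the share of Sstr1 among Sstr1 and Sstr2 UMIs, it was 67.4% in GABA_Gal_Pnoc (exact binomial 95% interval 61.9 to 72.6%), 53.6% in GABA_Gal_Rspo3 (49.1 to 58.1%), 38.3% in GABA_Calb2_Krt17 (30.2 to 46.9%) and 34.04% in GABA_Calb2_Tac1 (24.6 to 44.5%). In the 3 vGat sets, GABA_Gal_Pnoc gave 63.2, 68.3 and 66.7%, and GABA_Gal_Rspo3 gave 50.98, 52.8 and 55.2%. GABA_Calb2_Krt17 gave 31.7, 45 and 27.3%, and GABA_Calb2_Tac1 gave 46.9, 27.8 and 37.5%. In the vGat sets both galanin types lay above both Calb2 types, but some shares rest on few molecules. The nearest pair was 46.9% in GABA_Calb2_Tac1 (15 Sstr1 and 17 Sstr2 UMIs) and 50.98% in GABA_Gal_Rspo3 (52 and 50). That gap is narrower than the pooled interval of either type. The 27.3% of GABA_Calb2_Krt17 came from 3 and 8 UMIs. The wild-type sets of GABA_Gal_Pnoc ranged from 50 to 86.7% and overlapped those of GABA_Gal_Rspo3 (53.8 to 63.6%). A high share was not particular to the galanin types. GABA_Cplx1_Sorcs3 had 78.3% (63.6 to 89.1%), with 75 and 73.7% in vGat sets. GABA_Cplx1_Adamts5 and GABA_Npy_Crabp1, at 54.3 and 53.2%, were near GABA_Gal_Rspo3. The share is compared between types only and does not rank the receptors within a cell. These shares were chosen for a look after the levels were seen.

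**Figure D3:**
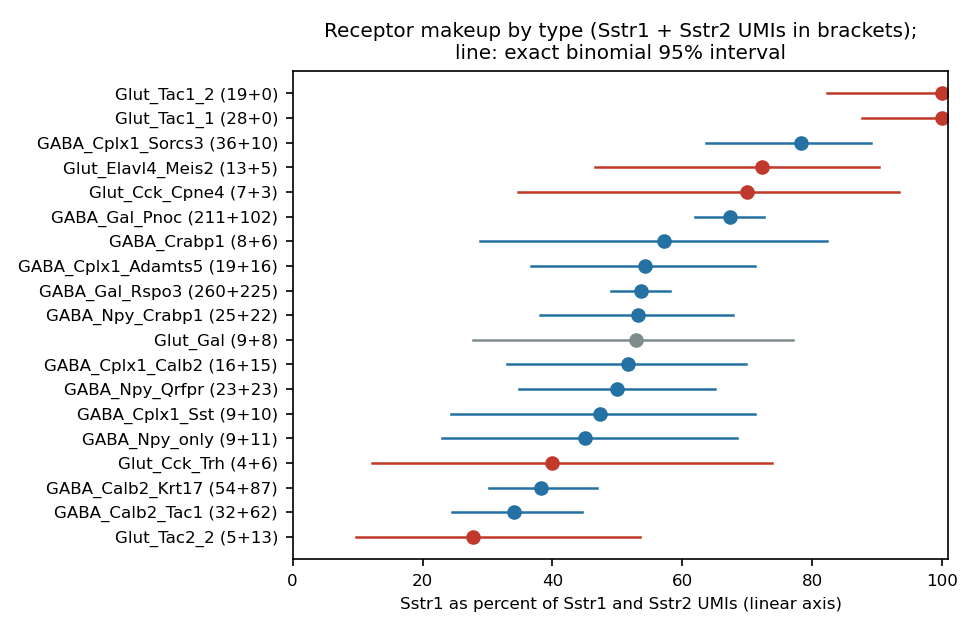
Sstr1 as a percentage of Sstr1 and Sstr2 UMIs (linear axis) in each type with at least 10 such UMIs, with exact binomial 95% intervals that cover counting error only; brackets give the UMIs of Sstr1 and Sstr2. Glut_Tac1_1 (28 and 0 UMIs) stands at 100%, GABA_Gal_Pnoc at 67.4% and GABA_Calb2_Tac1 at 34.04%.

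Within cells, ligand and receptor were read after thinning to 3000 UMIs. Of 640 excitatory cells with Sst, 27 (4.22%) also had Sstr1 and 11 (1.72%) had Sstr2; of those without Sst, 2.36% had Sstr1 and 0 cells had Sstr2, which allows a share of up to 2.86% for Sstr2 by the exact interval. Of 95 inhibitory cells with Sst, 21.1% had Sstr1 (13.4 to 30.6%) and 12.6% had Sstr2 (6.70 to 21.0%), against 21.8% and 21.2% of the 665 without Sst. Those intervals overlap for Sstr1 and for Sstr2 (18.2 to 24.5%). The receptors themselves met more often: 34.6% of inhibitory cells with Sstr2 also had Sstr1 (27.1 to 42.7%), against 18.5% of those without Sstr2 (15.4 to 21.8%). Within single types the order was not the same, with 50.8% against 38.1% in GABA_Gal_Rspo3 and 41.7% against 50.8% in GABA_Gal_Pnoc. Cells of 1 set are not replicates, so no test was made.

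The genes whose levels followed the members most closely across the 30 types were ranked by Pearson correlation of log2(CPM + 10) over 11219 genes, as a description of types that share cells and libraries. For Sst they were Cacna2d1, a calcium channel subunit (r = 0.93), the excitatory transporter gene Slc17a6 (0.91) and Tmem163 (0.91). For Sstr1 they were the neuropeptide receptor gene Npbwr1 (0.82), galanin (Gal, 0.79) and Pla2g7 (0.76). For Sstr2 they were Gal (0.89), Pnoc, the nociceptin precursor (0.83), and the protein kinase C gene Prkcb (0.82). Gal and Pnoc are also names of the types in which the receptors were highest. Sstr1 and Sstr2 had r = 0.79 with each other, while Sst had -0.60 with Sstr1 and -0.66 with Sstr2. Sstr3 was closest to Chmp2a (0.70), Fam122b (0.63) and Sema4a (0.63), and with 53 UMIs in all its order rests on few molecules.

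The lines are given by genotype rather than by clustering. Comparing them asks how the members differ between cells from the inhibitory and cells from the excitatory reporter line. In the vGat sets Sst was at 119.5, 132.5 and 91.8 CPM; in the vGlut2 sets it was at 9050, 10515, 8714 and 2734 CPM at 23, 24, 25 and 26 days. The groups did not overlap, and the vGlut2 set of 26 days, with 5 inhibitory cells among 17, was the lowest of its line. The log2 difference, vGat minus vGlut2, was -6.10 (SE 0.39, adjusted p = 6.91e-08, edgeR quasi-likelihood test with Benjamini-Hochberg adjustment over all genes).

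The receptors went the other way. Sstr1 was at 84.8, 109.6 and 66.1 CPM in the vGat sets and at 10.9, 28.7, 14.3 and 12.6 CPM in the vGlut2 sets, which differed by 2.59 on the log2 scale (SE 0.28, edgeR adjusted p = 1.43e-05). Sstr2 was at 78.5, 97.7 and 56.5 CPM in the vGat sets and at 6.52, 0, 7.67 and 37.7 CPM in the vGlut2 sets, which differed by 3.04 on the log2 scale (SE 0.40, edgeR adjusted p = 0.000101). For each receptor the lowest vGat set lay above the highest vGlut2 set. In this comparison 8.85% of 10598 genes tested passed, 4.32% higher and 4.53% lower in the vGat line. Both receptors met the filter on low counts through the vGat sets, and both also passed with no filter. Sstr3 and Sstr4 did not meet the filter. With limma on the mean of single-cell CPM, Sstr2 did not pass (3.44, adjusted p = 0.168).

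**Figure D4:**
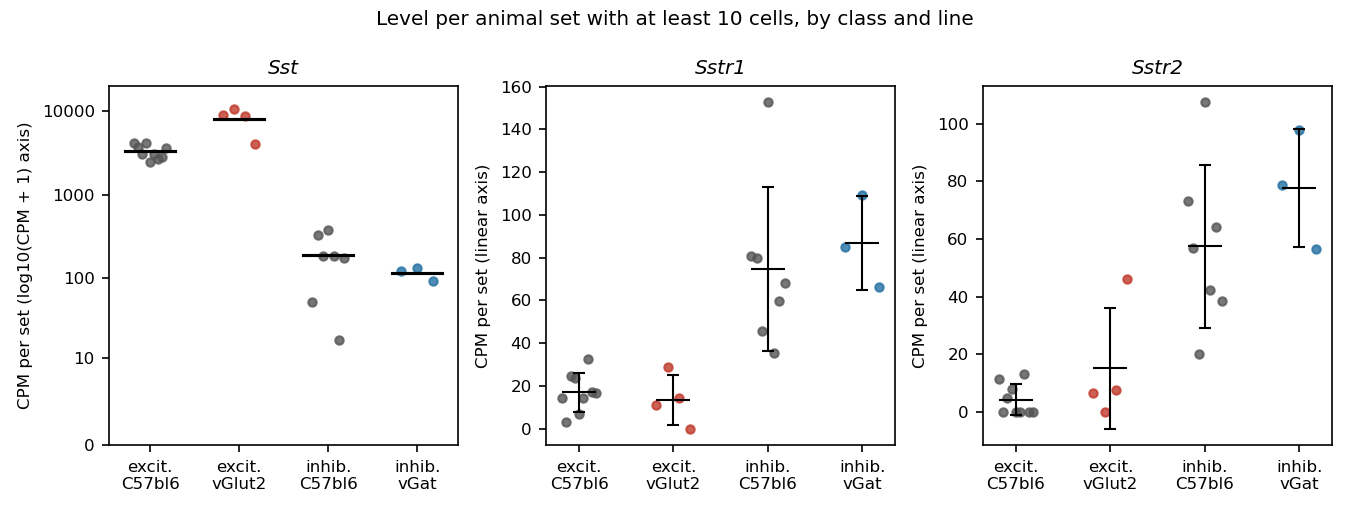
Levels of Sst, Sstr1 and Sstr2 in CPM for each animal set with at least 10 cells of the class, by class and line (grey C57bl6, red vGlut2, blue vGat). Horizontal lines are means and error bars are SD (receptors only); the Sst axis is log10(CPM + 1), where 3 of 4 vGlut2 sets lie above all 9 C57bl6 sets.

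Within excitatory cells Sst was higher in the vGlut2 line than in the wild type. The 9 C57bl6 sets ran from 2447 to 4136 CPM with a median of 3056, and the 4 vGlut2 sets of 23, 24, 25 and 26 days had 9033, 10515, 8714 and 3996 CPM. The 3 sets of 23 to 25 days lay above every wild-type set, and the set of 26 days lay inside the wild-type range. The means were 8065 ± 2824 CPM (SD, n = 4) and 3293 ± 625.8 CPM (n = 9). On the log2 scale Sst differed by 1.22 (SE 0.21, edgeR adjusted p = 0.000282). In this comparison 15.4% of 7163 genes passed, 5.08% higher and 10.4% lower in the vGlut2 line. Sstr1 and Sstr2 did not meet the filter there. Type by type, Sst was higher in the vGlut2 line in 14 of 14 excitatory types with at least 3 cells in both lines. The median ratio was 2.12 (1.22 to 5.95). Most excitatory cells of the vGlut2 line came from the set of 25 days. The 14 types are therefore not independent comparisons and largely repeat the difference of that set.

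Because the lines hold types in different shares, the Sst UMIs of each set were also divided by the number expected from the wild-type level of its types, with the set itself left out, a step added after the data were seen. This ratio was 1.88 ± 0.38 in the 4 vGlut2 sets (1.35 to 2.18) and 0.998 ± 0.228 in the 9 C57bl6 sets (0.739 to 1.40), with 3 of 4 vGlut2 sets above every wild-type set (exact two-sided permutation test on log2 ratios, p = 0.00559, adjusted p = 0.0224 over 4 such comparisons).

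Oligodendrocyte RNA moved with this difference. Among excitatory cells the oligodendrocyte list summed to 16809 to 58045 CPM in the wild-type sets and to 78.7, 86.1, 2125 and 38240 CPM in the vGlut2 sets of 23, 24, 25 and 26 days; the set inside the wild-type range for Sst was also inside it for this list. In C57bl6 excitatory cells Sst was at 5245 CPM in the 75 cells with under 1000 CPM of the list, at 4278 CPM in the cells with 1000 to 10000 CPM and at 2217 CPM in the cells above that. In vGlut2 excitatory cells it was at 8940, 8300 and 3334 CPM in the same bands, of which the upper ones held 7 and 14 cells. The unthinned share of cells with Sst did not fall over the C57bl6 bands, at 70.7, 72.7 and 78.2%. In the vGlut2 bands it was 99.1, 71.4 and 100%. The bands were not matched for neuron type. Restricted after seeing the data to cells with under 1000 CPM of the list, the sets with at least 5 such cells had Sst at 9766, 4865, 2840, 2313 and 3626 CPM in C57bl6 and at 9033, 10515 and 8850 CPM in the vGlut2 line. The C57bl6 set of 19 days then lay among the vGlut2 sets, and the log2 difference of 1.02 (SE 0.34) no longer passed (edgeR adjusted p = 0.120), in a fit in which 2.07% of 2849 genes passed. The part of oligodendrocyte RNA in this difference, and in the other comparisons of lines, was not tested further. Median depth of the excitatory cells was 8014 UMIs in C57bl6 and 7021 in the vGlut2 line.

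**Figure D5:**
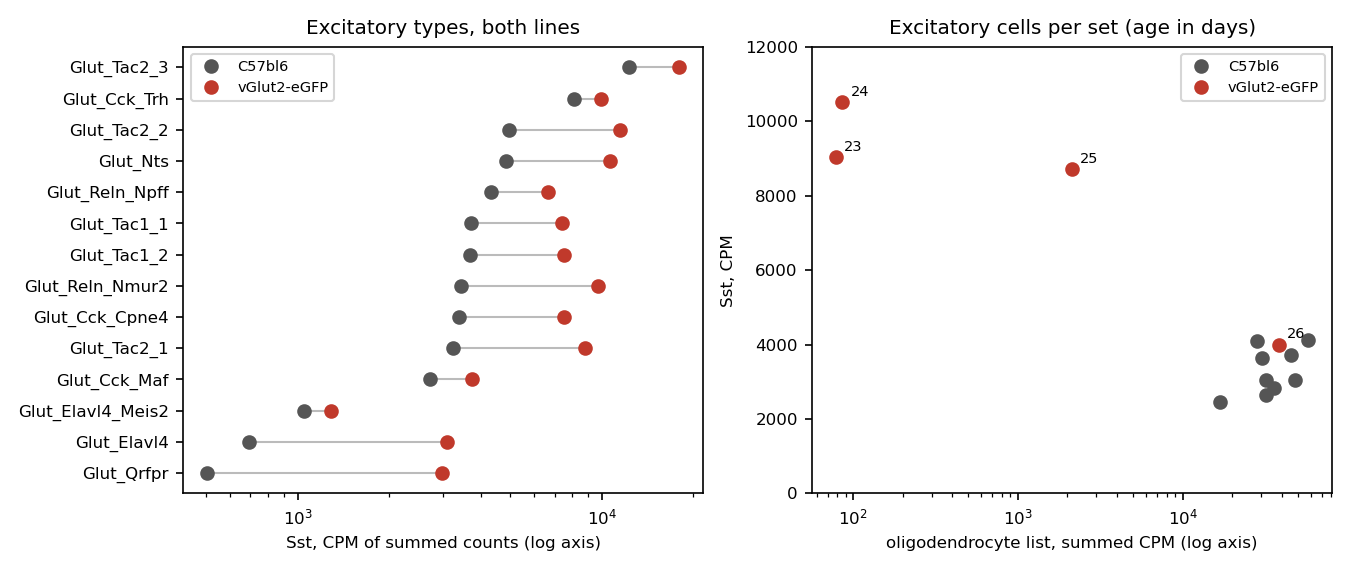
Left, Sst in CPM (log axis) in 14 excitatory types in C57bl6 (grey) and vGlut2-eGFP (red) cells, higher in the vGlut2 line in 14 of 14 types. Most vGlut2-eGFP excitatory cells came from the set of 25 days. Right, Sst in CPM (linear axis) against the summed oligodendrocyte list in CPM (log axis) for each set of excitatory cells, with the age in days beside the vGlut2 sets; the vGlut2 set of 26 days, at 38240 CPM of the list and 3996 CPM of Sst, lies among the C57bl6 sets.

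Within inhibitory cells no member passed the test between the vGat line and the wild type, a comparison in which 21.3% of 7687 genes passed, 8.39% higher and 12.9% lower in the vGat line. Sst was at 17.1 to 373.2 CPM with a median of 183.6 in the 7 C57bl6 sets and at 119.3, 132.5 and 91.8 CPM in the vGat sets (log2 -0.80, SE 0.37, edgeR adjusted p = 0.131). The vGat sets lay inside the wider wild-type range. Sstr1 was at 35.4 to 152.7 CPM with a median of 68.2 in C57bl6 and at 85.1, 109.6 and 66.1 CPM in the vGat line (0.28, SE 0.26, edgeR adjusted p = 0.477). Sstr2 was at 19.9 to 107.4 CPM with a median of 56.9 in C57bl6 and at 78.8, 97.7 and 56.5 CPM in the vGat line (0.59, SE 0.29, edgeR adjusted p = 0.152). Standardised for types as above, Sstr2 had a ratio of 1.40 ± 0.25 in the vGat sets and 0.965 ± 0.20 in the wild-type sets (exact permutation p = 0.05, adjusted p = 0.10 over 4 comparisons). The same ratios were 1.19 ± 0.19 and 0.888 ± 0.300 for Sstr1 (exact permutation p = 0.167) and 0.626 ± 0.123 and 1.08 ± 0.89 for Sst (exact permutation p = 0.75). The call on Sst depended on settings: it passed with no filter on low counts (-0.70, adjusted p = 0.00621, where Sstr2 passed too at 0.69, adjusted p = 0.0392) and without the C57bl6 set of 26 days (-1.004, adjusted p = 0.0149).

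Between 18 and 28 days in C57bl6 sets labelled male, no member that met the filter passed the test for age; Sstr3, Sstr4 and, in excitatory cells, Sstr2 were not tested. The slope of Sst was -0.04 per day on the log2 scale in excitatory cells (SE 0.02, 8 sets, edgeR adjusted p = 0.657) and -0.12 per day in inhibitory cells (SE 0.07, 6 sets, adjusted p = 0.818). The inhibitory slope ran from -0.304 without the set of 27 days to -0.026 without the set of 26 days, and was 0.081 with sets of at least 5 cells. Sstr1 had slopes of 0.06 and -0.03 per day and Sstr2 one of -0.03 in inhibitory cells, with adjusted p of 0.861, 0.963 and 0.97. In all, 0.0269% of 7424 genes passed in excitatory and 0.0472% of 6352 in inhibitory cells. For the difference of slopes between classes 0 genes passed by edgeR and 0 by DESeq2, with 3.45% of 8499 genes under an unadjusted p of 0.05 by edgeR.

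The partners of the pathway were followed in a list of 27 genes: related ligand and receptor genes and processing enzymes, inhibitory G protein subunits, GIRK channels, adenylyl cyclases, calcium channels, arrestins and receptor kinases. Between the reporter lines 23 were tested, 1 was higher in the vGat line and 3 were lower, against 4.32% and 4.53% of all genes, and the median log2 difference of the list was -0.09 against -0.01 for all genes. Pcsk1 and Pcsk2, which encode prohormone convertases that cut prosomatostatin, were lower in the vGat line, with log2 differences of -1.65 (SE 0.29) and -0.95 (SE 0.19, edgeR adjusted p = 0.00123 and 0.00404). Gnai2, an inhibitory G protein subunit, was lower too (-1.12, SE 0.25, edgeR adjusted p = 0.00756), and Adcy8, a calcium-stimulated adenylyl cyclase, was higher (1.81, SE 0.21, edgeR adjusted p = 2.85e-05). Both Pcsk genes and Gnai2 did not pass with age as a covariate. The GIRK channel genes tested, Kcnj3, Kcnj6 and Kcnj9, had log2 differences of -0.10, -0.21 and 0.38 and did not pass.

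In excitatory cells, 20 of the list were tested against the wild type: Pcsk1 (1.49, SE 0.31, edgeR adjusted p = 0.00184), Pcsk2 (0.53, SE 0.17, adjusted p = 0.0380) and the G protein subunit gene Gnaz (1.14, SE 0.32, adjusted p = 0.0179) were higher in the vGlut2 line, and Cacna1a, Gnao1 and Gnai2 were lower. These are 3 higher and 3 lower of 20, where 5.08% and 10.4% of all genes passed. The list's median was 0.13 against 0.00 for all genes. Pcsk1 lost its call without the vGlut2 set of 25 days (1.10, adjusted p = 0.134), and Pcsk2 lost its call in 11 of 21 alternatives. In inhibitory cells 19 were tested; Adcy8 and Cacna1b, a presynaptic calcium channel gene, were higher in the vGat line and Cacna1a, Gnao1 and Gnai2 were lower. That is 5 of 19, where 21.3% of all genes passed, a share near the background. Gnai2 was thus lower than the wild type in both lines (-1.48, SE 0.19, in inhibitory and -0.67, SE 0.21, in excitatory cells); with no filter on low counts the excitatory value did not pass (edgeR adjusted p = 0.0552). None of 18 and 16 listed genes tested for age passed.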

How the data were processed

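The authors deposited 1 table of UMI counts per gene and cell, which held a column for every cell, and per the submitters' processing notes Cell Ranger and the mm10 build (GRCm38) were used; the sources used here do not state versions, annotation or strand setting. The counts are raw, and in all 1545 cells they sum to the total in the labels. The 5 genes, the pathway list and the marker lists were chosen with earlier results of these data known.

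Counts were summed per animal set, and per set and class where a set had at least 10 cells of it. edgeR 4.0.16 (TMM scaling, filterByExpr, quasi-likelihood test) was fitted on all genes with Benjamini-Hochberg adjustment at 0.05. A trial on simulated counts gave every gene and set the same spread beyond counting error, so it does not measure error rates in these data. The alternatives were limma and DESeq2. Standard errors were taken as the log2 difference over the square root of the F statistic. Named genes were the members, the 3 genes most like each across types with at least 20 CPM in 1 type, and pathway genes past the test or named for their role. Shares of cells were taken after thinning to 3000 UMIs. No doublet caller was run, and upstream doublet removal is not stated. Cell classes and types are those in the labels, and no 2 cells held identical counts. Alternatives covered scaling, filters, tools, the unit, age and leaving out each set; the restriction by oligodendrocyte RNA, the type-standardised ratios, the receptor makeup and the cells with 10 or more Sst UMIs were added after the data were seen. Intervals cover counting error only.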

Additional observations from a re-analysis of the deposited data

Results flagged for a closer look

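Dixon's test for an outlying set was applied to 25 groups of sets and pointed to 4; chance alone points to about 1 in 20 groups. Sstr1 over all cells was at 116.99 CPM in the C57bl6 set of 22 days labelled male (20 cells), against 13.0 to 58.6 CPM in the other sets. Sstr1 in inhibitory cells was at 152.7 CPM in the C57bl6 set of 21 days, against 35.4 to 80.6 CPM. Sstr2 in excitatory cells was at 46.04 CPM in the vGlut2 set of 26 days, from 12 cells, against 0 to 7.67 CPM. Sstr3 over all cells was at 17.1 CPM in the C57bl6 set of 24 days (5 cells), against 0 to 8.14 CPM; this was 1 UMI, under the 51.2 CPM that a count of 0 allows in that set, which was the smallest.

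The 18 cells whose labels conflict, with a type name of Glut_Gal and an inhibitory class, entered no comparison of classes. They held Sst at 386.9 CPM (exact Poisson 95% interval 291.5 to 503.6, counting error only), with 35 of its 55 UMIs in 1 cell, Sstr1 at 63.3 CPM (9 UMIs in 7 cells) and Sstr2 at 56.3 CPM (8 UMIs in 4 cells), above the 21.1 CPM that a count of 0 allows there.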

How the results depend on the processing

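Among the members, 5 tested values changed sides of the threshold under an alternative, and 7 age slopes that did not pass changed sign. Between the reporter lines Sst ran from -6.64 to -5.95 on the log2 scale, Sstr1 from 2.19 to 2.76 and Sstr2 from 2.55 to 3.45; Sstr2 did not pass with limma on mean single-cell CPM (3.44). In excitatory cells Sst did not pass in cells with under 1000 CPM of oligodendrocyte genes (1.02). In inhibitory cells Sst passed with no filter (-0.70) and ran from -1.004 to -0.62 when each set was left out, and Sstr2 passed with no filter (0.69). The causes were not tested. The share of tested genes that passed moved more. Between the reporter lines 8.85% became 2.97% with age as a covariate, 21.3% with capture run as the unit, 1.9% with limma and 4.43 to 13.8% when each set was left out, lowest without the vGlut2 set of 25 days. In inhibitory cells 21.3% became 31.9% by capture run and 13 to 21.2% with a set left out. In excitatory cells 15.4% became 28.7% by capture run, 2.07% in cells with little oligodendrocyte RNA, and 5.84 to 16.8% with a set left out. By capture run fewer genes met the filter, and within the classes fewer genes passed in number although their share was higher. For age, 0.0269% in excitatory cells became 0.175% with DESeq2, 0.123% with no filter, 0.0143% with the set labelled female and 0.0117 to 0.0628% with a set left out; 0.0472% in inhibitory cells became 0.0686% with no filter and 0.0291 to 0.0772%; 0% for the difference of slopes became 0.0279% with no filter and 0 to 0.0129%. With sets of at least 5 cells the inhibitory Sst slope was 0.081 per day and the difference of Sst slopes 0.088; with a set left out the inhibitory Sstr2 slope ran from -0.075 to 0.037, and the difference of slopes from -0.239 to 0.0404 for Sst and from -0.137 to 0.295 for Sstr2. No paired analysis was possible because each set belongs to 1 line and the labels tie no set of a line to a set of another; the difference of slopes between classes was fitted with the animal set as a block. Sparse receptor counts limit levels per type, and 19 of 36 shares of cells moved with the depth at which they were read.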
